A study of Homo sapiens with 8 samples.

Results

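The proteasome is the barrel-shaped protease that degrades ubiquitin-tagged proteins in the nucleus and cytosol. Its 20S core is built from alpha rings, which gate the entrance, and beta rings, which hold the peptidase sites, and the 19S regulatory particle caps the core, binds ubiquitin chains, removes them and unfolds the substrate with a ring of ATPases. Dedicated chaperones assemble the core and the base of the cap, and subunit genes are classically controlled together by the transcription factor NFE2L1. The genes described here are those whose symbol consists of PSM, a letter from A to G and a number, together with POMP, ADRM1 and SHFM1 (now named SEM1). The rule used symbols and no measured value, and it found 47 of the 14526 genes in the deposited table.

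RNA-seq was carried out on 4 control replicates and 4 replicates given 10 mM sodium benzoate (SB) for 24 h before harvest, all of them labelled HepG2, a line established from a human liver carcinoma, and all grown in DMEM with 10% FBS. The study gave SB to raise cellular benzoyl-CoA and lysine benzoylation of histones (Kbz), and the comparison of SB-treated with control cells asks which transcripts change along with it. The study's methods call the replicates biological, without saying how the cultures were separated. Values are RPKM (reads scaled to gene length and library size), and comparisons of levels between genes depend on the gene length used by the authors.

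The 8 libraries held between 36964791 and 44846247 reads on the genes of the table. Of 20 genes that mark hepatocytes, 18 had no row in the table. TF (transferrin), which had one, was at 0.192 ± 0.0188 RPKM in the controls and 0.379 ± 0.0748 RPKM in the SB-treated replicates (SD, n = 4). Its part in the results was not tested. The liver identity given by the label is therefore not visible in these transcripts, and the samples are called control and SB-treated cells below. Of 8 leukocyte genes, 3 had a row, and their sum stayed between 3.41 and 4.58 RPKM over the 8 libraries. Control replicate 1 stood apart from the other controls. It was the highest control for 18 of the 47 proteasome genes and the lowest for 26, with log2 deviations from the mean of the other 3 controls between 0.34 (PSMA4) and -0.62 (PSMB10). Across the 47 genes, its deviation had a Pearson correlation of -0.67 with the GC content of the transcript, and across 13291 genes with a GC value the correlation was -0.72. The log2 fold change between SB-treated and control replicates had a correlation with GC content of -0.24 across the 47 genes. Without control replicate 1 that correlation was -0.42. Across the 13291 genes the 2 values were 0.13 and 0.01. The points of these correlations come from the same libraries and are given as a description. Results that turn on this replicate are given with and without it.

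**Figure D1:**
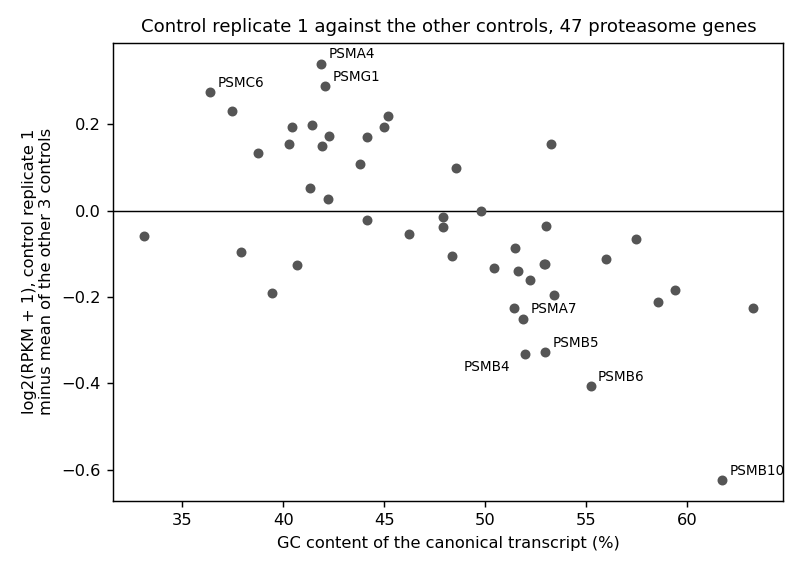
Each point is 1 of the 47 proteasome genes, with the GC content of its canonical GENCODE transcript in percent on the x axis and, on the y axis, log2(RPKM + 1) in control replicate 1 minus the mean of the other 3 controls. PSMB10, PSMB6, PSMB5 and PSMB4, with a GC content of 61.7, 55.2, 53.0 and 52.0%, lay farthest below 0. PSMA4, PSMG1 and PSMC6, at 41.9, 42.1 and 36.4%, lay farthest above it. PSMG4, at 53.25%, also lay above 0.

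The sequences upstream of the genes are shown first, as a description. Their part in the changes that follow was not tested. RefSeq promoter sequence (GRCh38.p14, from 250 bases before to 50 bases after a start site, the first entry of each gene) was found for 41 of the 47 genes. PSMA7, PSMB1, PSMB6, PSMB7, PSMD4 and PSMG3 had no entry. In both orientations, 3 short motifs were searched: TGACNNNGC, the core of the antioxidant response element that NFE2L1 and its relative NFE2L2 bind, CCAAT, which NF-Y binds, and CTTCCG, which ETS factors bind. CTTCCG was in 23 of the 41 promoters (56.1%), against 19.9% of all 27305 promoters of this length and 31.6% of the 10651 that belong to genes of the table. TGACNNNGC was in 13 (31.7%), against 13.6% of all promoters and 14.97% of those of the table. CCAAT was in 18 (43.9%), against 35.7% and 36.4%. These are letter matches and not binding sites.

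The 3 stretches below, of 250 bases each and ending just before the start site, contrast a member that holds all 3 motifs (PSMB3, chr17:38752491-38752740, plus strand), a lid subunit with CCAAT and CTTCCG (PSMD14, chr2:161308175-161308424, plus strand) and the member with the largest fall, which holds none (PSMB10, chr16:67936851-67937100, minus strand). Capitals mark the fixed letters of the motifs in either orientation.
PSMB3: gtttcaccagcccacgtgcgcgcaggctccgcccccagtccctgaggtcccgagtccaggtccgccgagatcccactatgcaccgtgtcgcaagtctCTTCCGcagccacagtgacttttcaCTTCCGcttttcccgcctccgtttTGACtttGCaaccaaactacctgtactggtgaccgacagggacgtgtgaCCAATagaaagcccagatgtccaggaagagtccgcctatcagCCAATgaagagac
PSMD14: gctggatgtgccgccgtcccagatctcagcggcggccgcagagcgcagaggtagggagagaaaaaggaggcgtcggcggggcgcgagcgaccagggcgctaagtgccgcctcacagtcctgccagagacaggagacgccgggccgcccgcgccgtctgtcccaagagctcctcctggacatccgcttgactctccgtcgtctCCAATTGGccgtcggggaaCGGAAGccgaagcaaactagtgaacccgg
PSMB10: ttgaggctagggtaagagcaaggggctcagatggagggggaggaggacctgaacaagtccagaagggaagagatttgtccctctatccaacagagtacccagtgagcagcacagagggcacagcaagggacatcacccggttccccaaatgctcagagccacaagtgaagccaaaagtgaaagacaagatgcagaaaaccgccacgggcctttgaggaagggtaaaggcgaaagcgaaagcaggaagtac

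The next 7 stretches show the TGACNNNGC match of members whose site lies upstream of the annotated gene, with 20 bases on each side and the fixed letters in capitals. The first 5 belong to genes that were lower in SB-treated cells and the last 2, PSME4 and PSMD5, to genes that were not.
PSMD12: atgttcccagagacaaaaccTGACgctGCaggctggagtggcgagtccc
PSMG1: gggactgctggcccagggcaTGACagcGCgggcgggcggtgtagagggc
PSME1: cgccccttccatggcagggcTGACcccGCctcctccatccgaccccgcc
PSMD3: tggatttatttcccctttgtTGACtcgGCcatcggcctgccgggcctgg
PSMD9: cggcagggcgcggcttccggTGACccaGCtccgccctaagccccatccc
PSME4: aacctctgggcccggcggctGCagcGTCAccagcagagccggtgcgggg
PSMD5: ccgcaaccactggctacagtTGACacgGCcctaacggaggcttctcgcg

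Relative to the start site, the printed match lies at position -165 for PSMD12 (chr17:67366714-67366762, minus strand), -183 for PSMG1 (chr21:39183606-39183654, minus strand), -86 for PSME1 (chr14:24136088-24136136, plus strand), -37 for PSMD3 (chr17:39980750-39980798, plus strand), -102 for PSMD9 (chr12:121888668-121888716, plus strand), -34 for PSME4 (chr2:53970999-53971047, minus strand) and -134 for PSMD5 (chr9:120843028-120843076, minus strand). PSMD9 holds a further match at -149 and PSMD3 at 33, which are not printed. Among the 13 members with a match the median log2 fold change was -0.34 and 11 were lower, and among the 28 without one the median was -0.36 and 23 were lower.

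Proteasome transcripts were lower in SB-treated cells in nearly every part of the complex. With limma on log2(RPKM + 1), from which all standard errors (SE) and adjusted p-values below come, and an adjusted p-value below 0.05 over all 14526 genes, 40 of the 47 genes fell, 1 rose (PSMD5) and 6 did not pass the test. Over all genes, 32.6% were called lower and 33% higher, so the 85.1% of members called lower can be read against 32.6%. The members' median log2 fold change was -0.36, beside 0.00 over all genes, and their median change in mean RPKM was -22.6%. The falls were of moderate size. A log2 fold change of -0.5 or less was reached by 7 members, 14.9% of them, beside 5.45% of all genes, and a value of 0.5 or more by none, beside 5.12% of all genes. For 40 members every SB-treated value lay below every control value, beside 30.5% of all genes, and for PSMD5 every SB-treated value lay above, beside 31% of all genes. Of the 40 members called lower, 39 were without overlap. PSMD3 was called with overlapping groups, and SHFM1 had separate groups without a call. Without control replicate 1, PSMB4, PSMB5 and PSMC6 were added to the 40 called lower, which made 43, beside 37.9% of all genes. PSMD5 stayed higher, beside 37.6%.

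Most of these genes are highly expressed, and highly expressed genes were lower more often. Of the 47 members, 43 were among the 3632 genes with the highest mean RPKM, from 21.2 RPKM upward. Of those genes 60.5% were called lower and 13.2% higher, the median log2 fold change was -0.21, and 11.8% of the genes reached -0.5 or less. The members' share and median lay beyond these values too, but nearer to them than to those of all genes. For these 3632 genes, the share without overlap and the shares under the other scalings below were not counted.

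The summed RPKM of all genes was between 403166 and 408246 in the controls and between 354642 and 356905 in the SB-treated libraries, so the choice of scaling matters for small changes. With library sizes that leave out the authors' TMM factors, which raises the median log2 ratio of all genes from 0.01 to 0.11, 36 members were lower and 2 higher. With each library set to the same summed RPKM, which raises it to 0.19, 31 were lower and 2 higher, and 16.7% of all genes were lower and 51.2% higher. Without TMM factors these shares were 23.1% and 43%. These 36 and 31 genes were all among the 40, and the calls lost under equal summed RPKM were those of PSMA2, PSMC4, PSMC5, PSMD3, PSMD4, PSMD6, PSMF1, PSMG2 and POMP. The 7 members at -0.5 or less became 3 without TMM factors and 1 under equal summed RPKM. The share of all genes at that size was not counted under these scalings. Of the 40, PSMD3 and PSMF1 turned to a positive value under equal summed RPKM, and none did without the TMM factors. Relative to the median of all genes, the members' median stayed between -0.36 and -0.31 over these scalings. In these bulk samples, fewer cells of a type and less RNA per cell cannot be told apart.

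**Figure D2:**
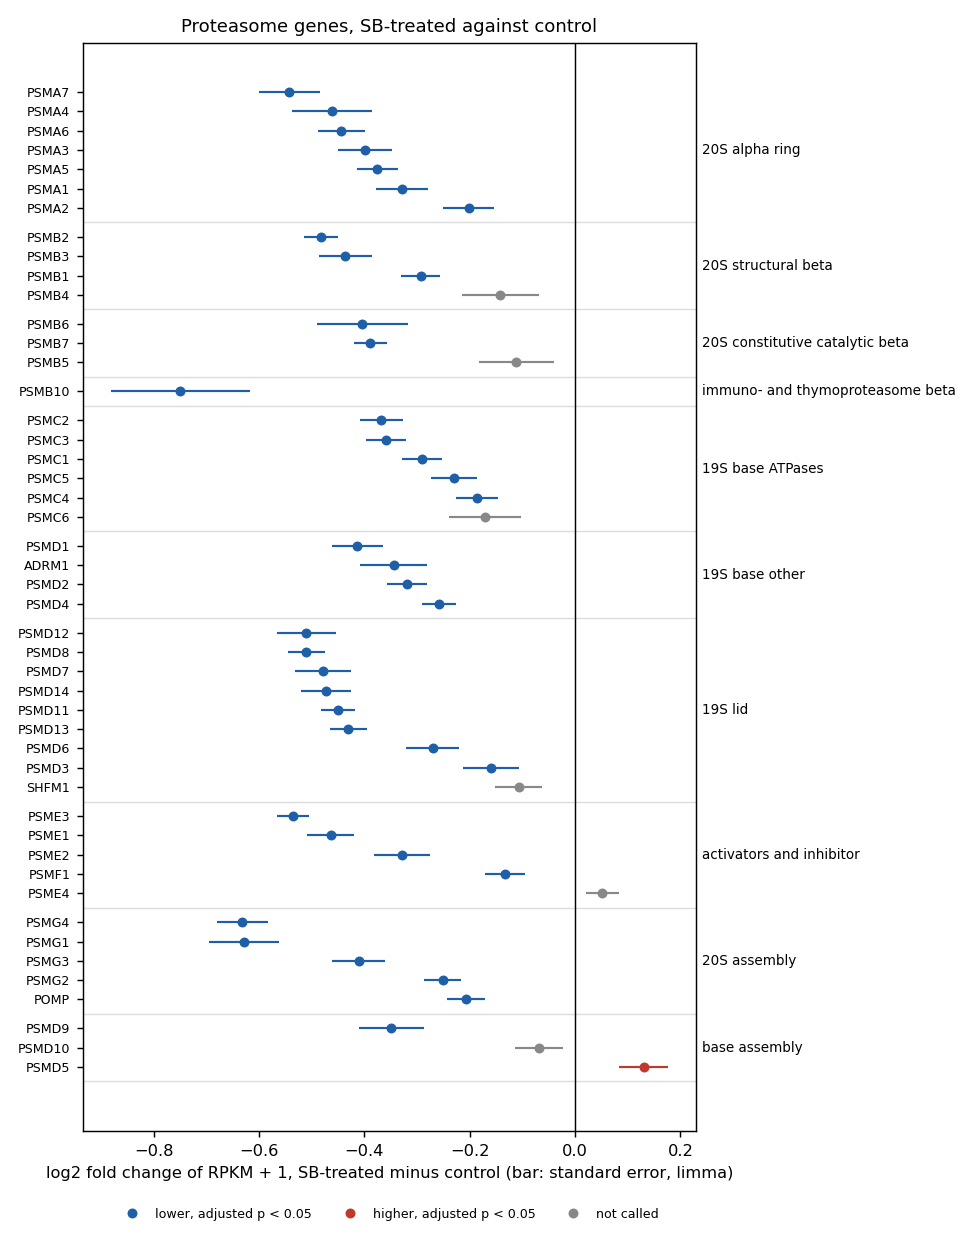
Log2 fold change of RPKM + 1 (x axis, SB-treated minus control, 4 replicates a group) of the 47 proteasome genes, grouped by role, with points for the estimate and bars for the limma standard error. All but PSME4 and PSMD5 lie left of 0. Under equal summed RPKM, PSMD3, PSMF1, PSMB4, PSMB5, PSMC6, SHFM1 and PSMD10 turn to positive values, and PSMD10 also does so without TMM factors.

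The alpha subunits form the outer rings and the gate of the core. The 7 measured alpha genes, PSMA1 to PSMA7, were all called lower, with log2 fold changes from -0.54 to -0.20 and a median of -0.40. The call of PSMA2 was lost without TMM factors (log2 fold change -0.10, limma adjusted p = 0.115) and under equal summed RPKM (-0.02, limma adjusted p = 0.752). PSMA8, a testis-enriched form, had no row. PSMA7, which encodes alpha 4, showed the largest fall of the ring. Its controls were at 145, 169, 176 and 173 RPKM and its SB-treated replicates at 113, 113, 113 and 114 RPKM. The groups did not overlap, and the SB-treated replicates lay much closer together than the controls. The log2 fold change of PSMA7 was -0.54 (SE 0.058, adjusted p = 3.07e-05).

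Among the structural beta subunits, which carry no active site, PSMB2, PSMB3 and PSMB1 fell and PSMB4 did not pass the test. PSMB2 was at 36.0, 37.3, 35.3 and 37.1 RPKM in the controls and at 25.8, 25.7, 25.8 and 25.7 RPKM in the SB-treated replicates. These groups were far apart, with a log2 fold change of -0.48 (SE 0.032, adjusted p = 1.96e-06). PSMB1, among the most abundant members, fell from 224 ± 7.81 to 182 ± 3.82 RPKM (SD, n = 4). PSMB4, with PSMB1 the most abundant, was at 204, 259, 258 and 255 RPKM in the controls and at 220, 225, 216 and 218 RPKM in the SB-treated replicates. Control replicate 1 lay below every SB-treated replicate and the other 3 controls lay above them. The log2 fold change of PSMB4 was -0.14 (limma adjusted p = 0.111), and without control replicate 1 it was -0.23 (limma adjusted p = 2.99e-05).

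Of the 3 constitutive catalytic subunits, PSMB6 and PSMB7 were called lower and PSMB5 did not pass the test. PSMB6 (beta 1, caspase-like activity) was at 77.1, 101, 102 and 105 RPKM in the controls and at 72.9, 72.8, 71.8 and 70.2 RPKM in the SB-treated replicates, and control replicate 1 stood near the treated values. Its log2 fold change was -0.40 (SE 0.087, adjusted p = 0.00244), and without control replicate 1 it was -0.51 (limma adjusted p = 3.73e-07). PSMB7 (beta 2, trypsin-like activity) was at 62.9, 63.4, 62.6 and 62.8 RPKM in the controls and at 47.5, 47.8, 49.2 and 46.8 RPKM in the SB-treated replicates, a log2 fold change of -0.39 (SE 0.031, adjusted p = 5.60e-06). Neither pair of groups overlapped. PSMB5 (beta 5, chymotrypsin-like activity and the site that bortezomib blocks most strongly) was at 77.0, 96.7, 97.5 and 96.6 RPKM in the controls and at 84.3, 86.0, 84.0 and 84.3 RPKM in the SB-treated replicates. As for PSMB4, control replicate 1 was the lowest of all 8 values and the other controls were the highest. The log2 fold change of PSMB5 was -0.11 (limma adjusted p = 0.192), and it was -0.19 (limma adjusted p = 5.21e-05) without control replicate 1. Whether PSMB5 fell less than PSMB6 and PSMB7 was not tested.

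PSMB10 showed the largest fall of the 47 genes. It encodes beta 2i, which replaces PSMB7 in the immunoproteasome, the form that interferon induces and that is abundant in immune cells. The controls were at 7.66, 12.2, 13.0 and 11.9 RPKM and the SB-treated replicates at 5.77, 6.62, 6.27 and 5.86 RPKM, from a mean of 442 reads to a mean of 257. Control replicate 1 was the lowest control and still lay above the treated values. The log2 fold change was -0.75 (SE 0.13, adjusted p = 7.45e-04), and it was -0.91 without control replicate 1 (limma adjusted p = 3.00e-07). PSMB10 was next to PSMD5 the least abundant member, at 11.2 ± 2.39 RPKM (SD, n = 4) in the controls, below its constitutive counterpart PSMB7 at 62.9 ± 0.356 RPKM. Its partners PSMB8 and PSMB9, and the thymus form PSMB11, had no row. Of the PSMB10 exon bases in GENCODE, 39.4% are shared with another annotated gene on the same strand, and how the counting divided such reads is not given in the sources used here.

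**Figure D3:**
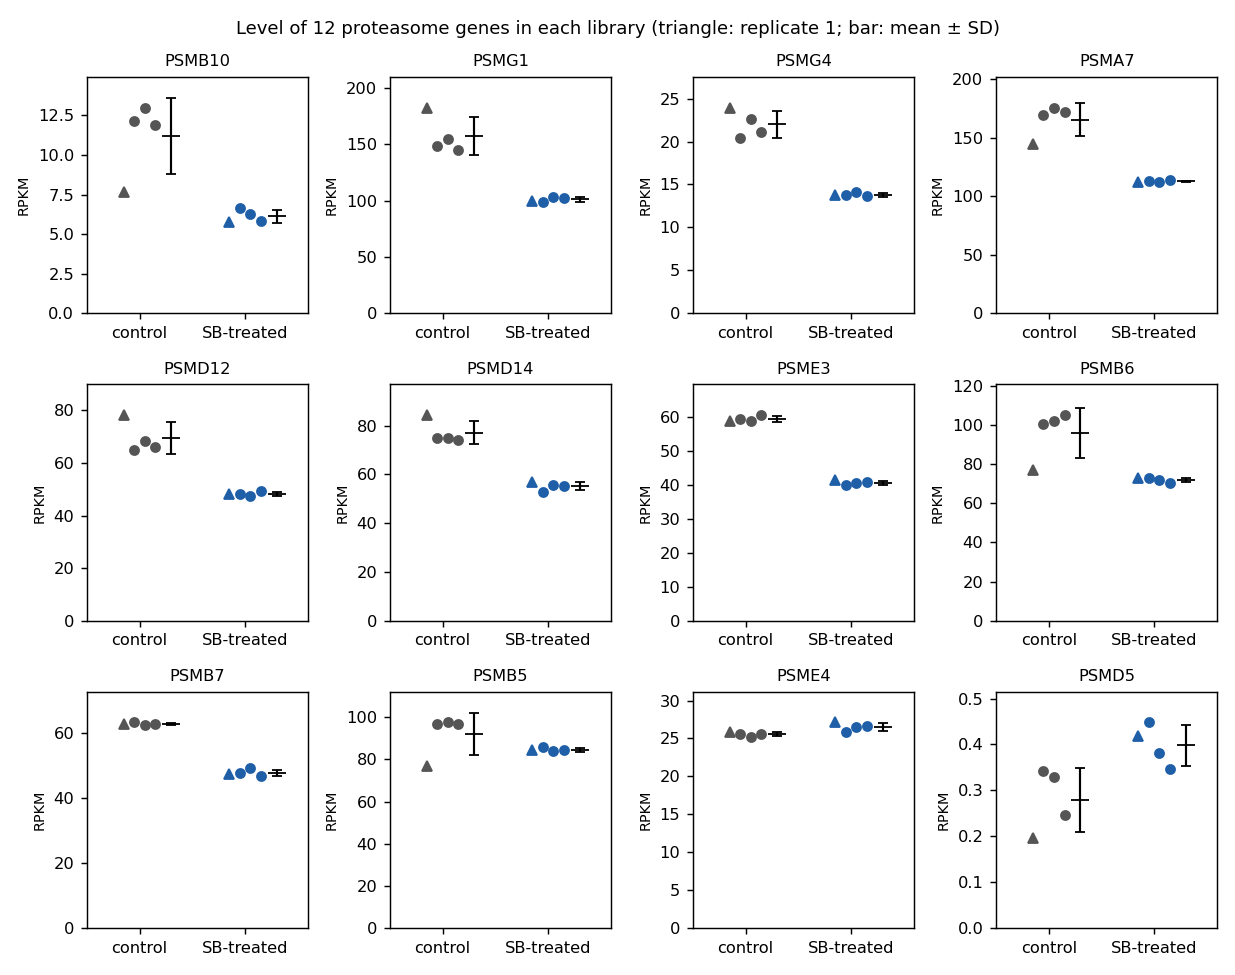
RPKM (y axis, from 0) of 12 proteasome genes in each of the 4 control and 4 SB-treated libraries, with triangles for replicate 1, circles for the other replicates and a bar for the mean and SD. PSMB10, PSMG1, PSMG4, PSMA7, PSMD12, PSMD14, PSME3, PSMB6 and PSMB7 do not overlap between groups, the PSMB5 and PSME4 groups do, and PSMD5 is higher in SB-treated cells at levels below 0.45 RPKM.

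In the 19S base, the 6 ATPases that unfold substrates changed least among the large modules. PSMC1 to PSMC5 were called lower and the median log2 fold change of the 6 was -0.26, with a range from -0.37 (PSMC2) to -0.17 (PSMC6). The call of PSMC4 was lost without TMM factors (limma adjusted p = 0.101), and under equal summed RPKM those of PSMC4 (limma adjusted p = 0.943) and PSMC5 (limma adjusted p = 0.364) were lost. PSMC6 lay just outside the threshold. It was at 59.3, 47.8, 52.0 and 47.002 RPKM in the controls and at 46.2, 43.4, 45.2 and 47.016 RPKM in the SB-treated replicates, so that control replicate 4 and SB-treated replicate 4 were level, and control replicate 1 was the highest of all. Its adjusted p was 0.0510 in limma, and 0.0467 without control replicate 1, where the log2 fold change was smaller, -0.10. Under equal summed RPKM the log2 fold change of PSMC6 was 0.01. The other base subunits PSMD1, PSMD2, PSMD4 and ADRM1 were lower, with log2 fold changes from -0.41 to -0.26. PSMD4 and ADRM1 are ubiquitin receptors, and PSMD1 and PSMD2 are the large scaffold subunits. GENCODE lists 13 pseudogenes named after PSMC1, the most for any member, and 46 pseudogenes over 19 of the members. Of the PSMC1 exon bases, 76.15% are shared with NRDE2 on the opposite strand, and the strand setting of the counting is not given. More than 10% of exon bases were shared for 5 members on the same strand and for 6 on the opposite strand. How multiply mapping reads were treated is not given in the sources used here.

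The 19S lid, which holds the deubiquitinating subunit, fell further than the base by its median, -0.45. Of its 9 genes, 8 were called lower. PSMD14, the metalloprotease that cuts ubiquitin chains off the substrate, was at 84.3, 75.0, 75.0 and 74.0 RPKM in the controls and at 56.9, 52.8, 55.8 and 55.3 RPKM in the SB-treated replicates (log2 fold change -0.47, SE 0.048, adjusted p = 2.25e-05). PSMD12 fell from 69.4 ± 6.004 to 48.3 ± 0.819 RPKM (SD, n = 4) and PSMD8 from 122 ± 4.06 to 85.3 ± 1.07 RPKM (SD, n = 4), each with a log2 fold change of -0.51. Without control replicate 1, the log2 fold change was -0.45 for PSMD12 and -0.53 for PSMD8. Both are structural lid subunits, and neither had overlapping groups. PSMD3 was called lower with the groups overlapping, from 63.6, 73.9, 75.9 and 71.6 RPKM in the controls to 62.1, 63.8, 64.0 and 64.1 RPKM (log2 fold change -0.16, limma adjusted p = 0.0231), and its value turned positive, to 0.02, under equal summed RPKM. The call of PSMD3 was also lost without TMM factors (limma adjusted p = 0.390) and on leaving out control replicate 2, 3 or 4 or SB-treated replicate 1 (limma adjusted p of at most 0.0647). SHFM1, the small acidic subunit that the lid shares with other complexes, was at 106, 94.0, 99.6 and 92.7 RPKM in the controls and at 91.3, 91.0, 90.4 and 90.6 RPKM in the SB-treated replicates. The SHFM1 groups did not overlap, but its log2 fold change of -0.11 did not pass the limma test (adjusted p = 0.0578), and it was 0.08 under equal summed RPKM.

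Summed over the genes of a module, the 20S core transcripts were at 1502, 1562, 1590 and 1562 RPKM in the controls and at 1231, 1230, 1204 and 1229 RPKM in the SB-treated replicates, a change of -21.3%. The same sum changed by -17.4% for the ATPases, -19.7% for the other base subunits and -23.2% for the lid. In all these sums the groups were separate, and the SB-treated replicates lay closer together than the controls. The sums are descriptions, without a test. The core subunits are present in equal numbers in the finished particle, and their transcripts were not level. Mean RPKM over the 14 core genes spanned 6.70-fold in the controls, from PSMB2 to PSMB4, and 8.53-fold in SB-treated cells, between the same genes. The gene length behind these values is 1.07 times the GENCODE exon bases for PSMB2 and 0.436 times for PSMB4, so the size of the span depends on the lengths used.

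**Figure D4:**
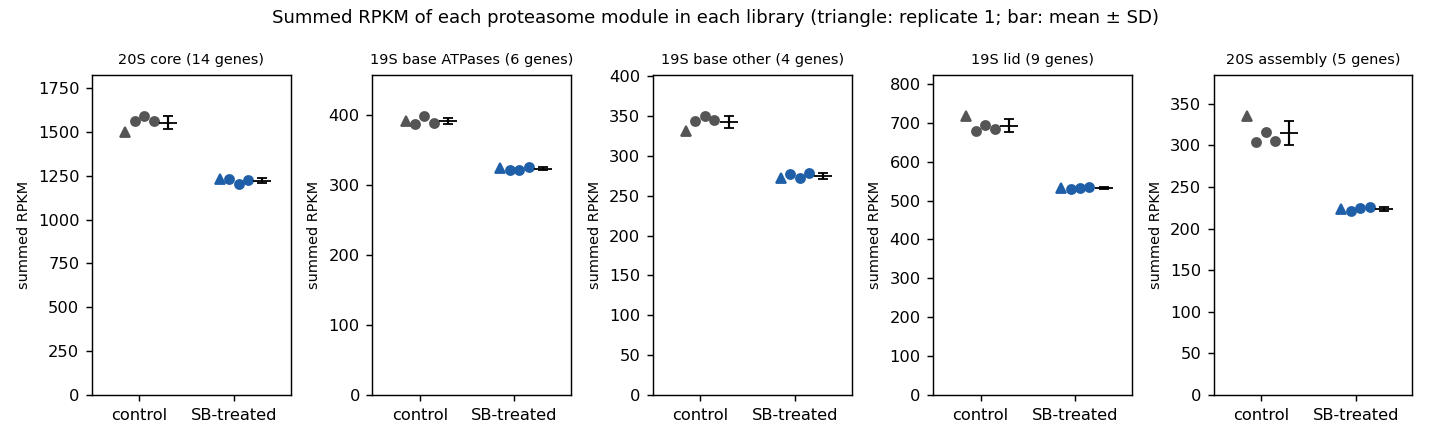
Summed RPKM (y axis, from 0) of the genes of 5 modules in each library, with triangles for replicate 1, circles for the other replicates and a bar for the mean and SD (n = 4). The SB-treated libraries lie below all control libraries in each module, and the change of the sum is the largest, -29.0%, for the 20S assembly factors. PSMG1 alone made up 157 of the 315 RPKM of that sum in the controls. By median log2 fold change the lid (-0.45) fell further than the assembly factors (-0.41).

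The 20S assembly factors included members with large falls. PSMG1 to PSMG4 and POMP were all called lower, with a median log2 fold change of -0.41. PSMG1, which pairs with PSMG2 as a chaperone of the alpha ring, was at 182, 148, 154 and 145 RPKM in the controls and at 99.6, 99.0, 103 and 102 RPKM in the SB-treated replicates (log2 fold change -0.63, SE 0.066, adjusted p = 2.80e-05). PSMG4, which pairs with PSMG3, was at 23.9, 20.4, 22.6 and 21.2 RPKM in the controls and at 13.7, 13.7, 14.2 and 13.7 RPKM in the SB-treated replicates (log2 fold change -0.63, SE 0.049, adjusted p = 4.31e-06). The groups of both genes were well apart. Their partners PSMG2 and PSMG3 had log2 fold changes of -0.25 and -0.41. POMP, which brings the beta subunits together on the membrane of the endoplasmic reticulum, was at 40.1, 41.6, 41.8 and 42.1 RPKM in the controls and at 36.5, 34.5, 34.9 and 37.0 RPKM in the SB-treated replicates, a smaller fall (log2 fold change -0.21, SE 0.036, adjusted p = 7.46e-04) that came to -0.02 (limma adjusted p = 0.561) under equal summed RPKM.

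The chaperones of the base were mixed. PSMD9 was lower (log2 fold change -0.35, limma adjusted p = 7.71e-04). PSMD10, known as the oncoprotein gankyrin, was at 55.7, 50.7, 49.1 and 50.1 RPKM in the controls and at 49.7, 49.8, 46.9 and 49.4 RPKM in the SB-treated replicates, and the groups overlapped. Its log2 fold change of -0.07 (limma adjusted p = 0.213) became 0.04 without the TMM factors and 0.12 under equal summed RPKM. PSMD5 was the member that rose, at a level near the limit of the table. It was at 0.196, 0.343, 0.330 and 0.246 RPKM in the controls and at 0.419, 0.448, 0.380 and 0.346 RPKM in the SB-treated replicates, from a mean of 38.0 to 57.5 reads. The groups did not overlap, but the gap between them was small. The log2 fold change of PSMD5 was 0.13 on the log2(RPKM + 1) scale, which understates changes at this level, with a limma adjusted p of 0.0315, the member just inside the threshold. Without control replicate 4, the call was lost (limma adjusted p = 0.0770), and it was lost as well without SB-treated replicate 1 (0.0739), 2 (0.0886) or 3 (0.0560).

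Of the alternative caps and the inhibitor, PSME1, PSME2, PSME3 and PSMF1 were called lower and PSME4 did not pass the test. PSME3, the nuclear activator PA28 gamma, was at 58.8, 59.2, 58.7 and 60.4 RPKM in the controls and at 41.2, 39.8, 40.5 and 40.8 RPKM in the SB-treated replicates, and control replicate 1 did not stand apart. Its log2 fold change was -0.54 (SE 0.031, adjusted p = 9.49e-07), the smallest adjusted p among the members. PSME1 and PSME2, the interferon-inducible activator subunits, had log2 fold changes of -0.46 and -0.33. PSME4, the activator PA200, was at 25.9, 25.5, 25.2 and 25.5 RPKM in the controls and at 27.1, 25.8, 26.5 and 26.6 RPKM in the SB-treated replicates. Its groups overlapped by 1 pair of values, and its log2 fold change was 0.05 (limma adjusted p = 0.169), but 0.15 without the TMM factors (limma adjusted p = 0.00149) and 0.23 under equal summed RPKM (limma adjusted p = 1.49e-04). PSMF1, the inhibitor PI31, was at 36.9, 39.9, 39.3 and 40.1 RPKM in the controls and at 34.7, 35.2, 35.8 and 36.3 RPKM in the SB-treated replicates. The groups lay close without overlap, and its log2 fold change of -0.13 (limma adjusted p = 0.0109) became 0.05 under equal summed RPKM.

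Genes that act beside the proteasome were read from lists of 45 symbols. Of these, 18 were lower and 9 were higher. These counts, and those of the lists that follow, are read against the 32.6% of all genes called lower and the 33% called higher. Many of the 45 are highly expressed, and of the genes from 21.2 RPKM upward 60.5% were called lower and 13.2% higher. Among 21 receptors, shuttles and enzymes at the proteasome, 12 were lower and 3 higher, with a median log2 fold change of -0.27. UCHL5, the deubiquitinase that docks on ADRM1, was at 48.8, 35.9, 38.0 and 35.0 RPKM in the controls and at 23.4, 21.5, 22.8 and 23.3 RPKM in the SB-treated replicates. Its log2 fold change was -0.76 (SE 0.092, adjusted p = 7.28e-05). Without control replicate 1, its highest control, the value was -0.65 (limma adjusted p = 6.54e-07). For PSMB10 the value was -0.75 with that replicate and -0.91 without it. AKIRIN2, which carries proteasomes into the nucleus, fell from 49.9 ± 2.84 to 32.4 ± 0.671 RPKM (SD, n = 4, log2 fold change -0.61). USP14, the other deubiquitinase of the cap, had a log2 fold change of -0.29. None of these groups overlapped.

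Of the 9 genes in the list around NFE2L1, 5 were higher, beside 33% of all genes, and 1 was lower (NGLY1, which removes the glycans of NFE2L1). NFE2L2, MAFF and MAFK did not pass the test, with log2 fold changes between -0.01 and 0.06. NFE2L1 was at 33.0, 33.7, 34.4 and 35.3 RPKM in the controls and at 38.5, 39.0, 38.7 and 38.1 RPKM in the SB-treated replicates, without overlap (log2 fold change 0.18, SE 0.033, adjusted p = 0.00116). MAFG, a small MAF protein with which NFE2L1 pairs on DNA, had the largest rise of the 45 genes, from 6.52, 7.38, 7.07 and 8.09 RPKM to 14.7, 14.6, 14.7 and 14.5 RPKM (log2 fold change 0.92, SE 0.054, adjusted p = 9.90e-07). OGT, the O-GlcNAc transferase, rose from 65.4 ± 2.63 to 95.1 ± 1.69 RPKM (SD, n = 4), and HCFC1, the cofactor with which it acts on NFE2L1, from 22.7 ± 3.88 to 30.4 ± 1.90 RPKM (SD, n = 4). Control replicate 1 was the lowest control of HCFC1, at 17.0 RPKM. The log2 fold change of HCFC1 was 0.42, and it was 0.29 without that replicate. The activity of NFE2L1, which is set largely by processing of the protein, was not measured. Of 6 genes for ubiquitin and its activating enzymes, 3 were lower and none was higher.

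Among 9 genes of antigen processing and its regulators, 2 were lower and 1 was higher. TAP1, the peptide transporter encoded beside PSMB9, was at 0.420 ± 0.0458 RPKM in the controls and 0.451 ± 0.0288 RPKM in SB-treated cells (SD, n = 4). The gene length behind the RPKM of TAP1, worked out from its reads, is 25192 bases, or 5.32 times its exon bases in GENCODE, so its RPKM cannot be set beside that of other genes. For the 47 proteasome genes, this ratio ran from 0.0468 (SHFM1) to 1.37 (PSMB3), with a median of 0.441. Levels of PSMB8 and PSMB9, which lie in the same region as TAP1 and had no row, are not judged here.

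**Figure D5:**
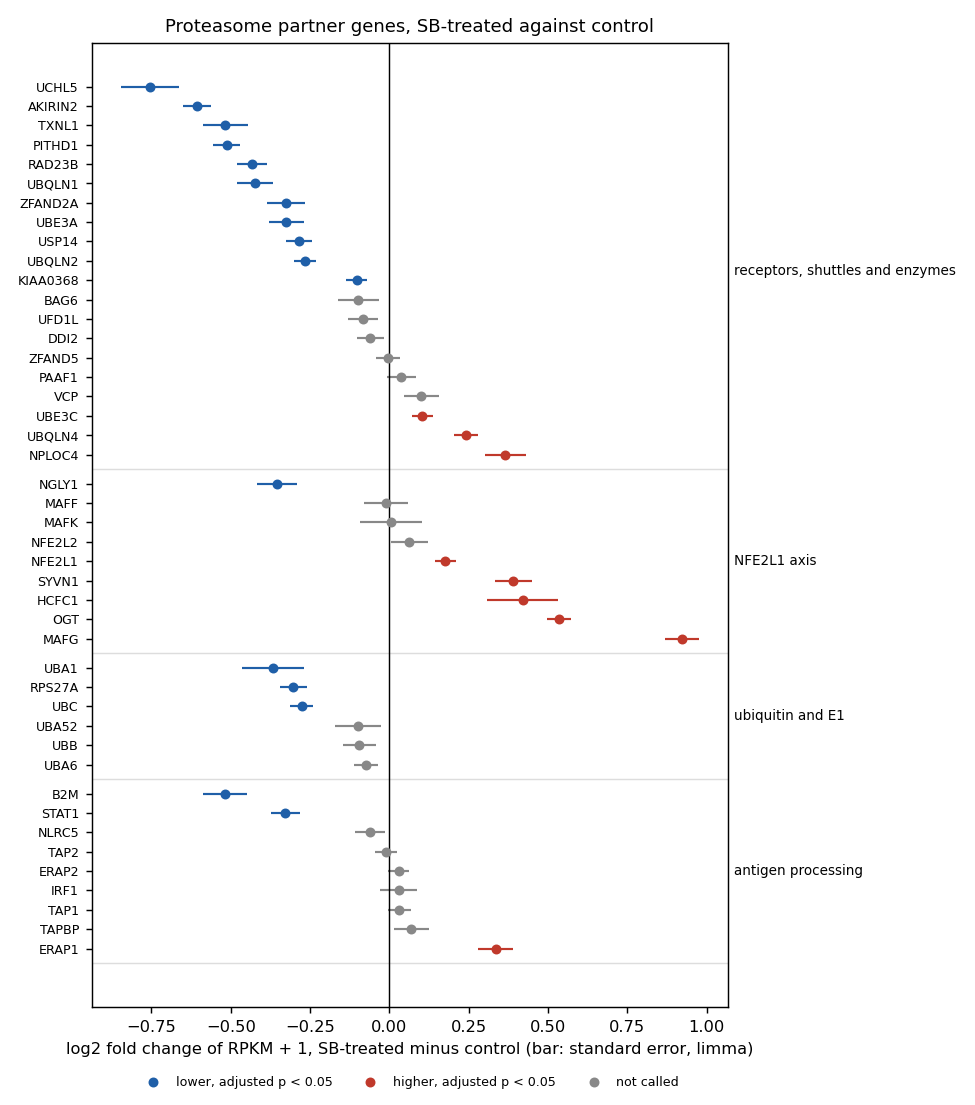
Log2 fold change of RPKM + 1 (x axis, SB-treated minus control, 4 replicates a group) of partner genes in 4 lists, with points for the estimate and bars for the limma standard error. UCHL5 and AKIRIN2 lie farthest to the left, and MAFG and OGT farthest to the right.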

How the data were processed

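Total RNA was sequenced as 50 bp single reads from a stranded total RNA kit. Per the study's methods and the submitters' processing notes, reads were aligned to hg38 with TopHat 2.1.0, counted with featureCounts 1.5.0 and scaled with edgeR 3.16.5 (TMM), and genes above 1 CPM in at least 2 samples were kept. The authors deposited RPKM per sample on these scaled library sizes. Columns of their own comparison (fold change, mean level, p-value and FDR) were not used. The gene annotation and the strand setting of the counting are not given in the sources used here.

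RPKM values were whole multiples of the value of 1 read in 100% of genes (tolerance 0.02 reads), which gave the reads per library. Groups were taken from the sample labels. The 4 SB-treated and 4 control samples were compared on log2(RPKM + 1) with limma 3.58.1 (R 4.3.3), without covariates, with Benjamini-Hochberg adjustment over all 14526 genes and a threshold of 0.05. The script was tested on simulated data. Adjusted p-values without another named tool are from limma.

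Genes were named by rule: catalytic subunits, the 8 highest and 8 lowest fold changes, the 2 highest and 2 lowest levels, 6 genes chosen for their roles, those next to the threshold, and for partners NFE2L1, USP14, UCHL5 and the 3 largest called changes each way. Genes named outside it (PSMG2, PSMG3, PSMD1, PSMD2, PSMD4, ADRM1, PSME1, PSME2, PSMD9, PSMA2, PSMB3, PSMC1, PSMC2, PSMC4, PSMC5, PSMD6, NGLY1, NFE2L2, MAFF, MAFK and TAP1, and PSMA4 for control replicate 1) were chosen after their values were seen. Alternatives were a pseudocount of 0.1, a mean of at least 1 RPKM, other scalings, an intensity trend, voom on the recovered reads, a replicate block and leaving out each replicate. The members and lists were chosen with earlier results of these data known. A marker gene and a partner gene that the lists and counts include are not reported here.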

Additional observations from a re-analysis of the deposited data

Results flagged for a closer look

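Within groups of 4 libraries, a library was singled out where its gap to the nearest other, divided by the range of the group, was above Dixon's 95% critical value. Of the 94 groups that the 47 proteasome genes form, 15 passed, where chance gives about 1 in 20 or 4.7, and in 10 of the 15 the library was control replicate 1. Among the named genes, control replicate 1 was the lowest control for PSMB5 (0.957), PSMB4 (0.936), PSMB6 (0.857) and PSMB10 (0.837), and the highest for PSMD14 (0.897). Control replicate 3 was the highest control for PSMB1 (0.869). Of the SB-treated libraries, replicate 3 was the highest for PSMG4 (0.881) and the lowest for PSMD10 (0.855), and replicate 1 was the lowest for PSMD3 (0.855). Of the 16 groups of named partner genes, 1 passed, USP14 with SB-treated replicate 1 as the highest (0.887).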

How the results depend on the processing

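The count of members called lower (40) stayed between 31 and 43 over 16 alternatives, and of partner genes called lower (18) between 16 and 22. The count of members called higher (1) became 0 with a mean of at least 1 RPKM, which removes PSMD5, and 2 both without TMM factors and under equal summed RPKM. Members lower by 0.5 or more (7) became 3 without TMM factors and 1 under equal summed RPKM, and members higher by that size (0) became 1 with voom on recovered reads, PSMD5. The shares of all genes at these sizes were not counted under these settings. Partner genes called higher (9 of 45) became 17 under equal summed RPKM, a setting in which 51.2% of all genes were called higher. Leaving out 1 replicate gave 39 to 43 members lower, 0 to 1 higher, 7 to 8 lower by 0.5 or more, 0 to 0 higher by that size, 40 to 43 without overlap, 8 to 10 partner genes higher and 17 to 22 lower. PSMD3 lost its call without control replicate 2, 3 or 4 or SB-treated replicate 1 (limma adjusted p of at most 0.0647). Under equal summed RPKM the log2 fold change turned positive for PSMC6 (0.0124), PSMD3 (0.0237), PSMB4 (0.0441), PSMF1 (0.0490), PSMB5 (0.0733), SHFM1 (0.0776) and PSMD10 (0.115), and without TMM factors for PSMD10 (0.0354). Both settings raise the median of all genes. Of 479 alternatives for named genes, 448 kept direction and side of the threshold, 12 gained and 11 lost the call, and 8 turned sign. A replicate block gave 41 members lower and 1 higher, and added PSMC6 (limma adjusted p = 0.0339). Same-numbered samples had correlations of deviations of 0.38, 0.33, 0.17 and -0.16 (mean 0.18, beside -0.05 for other pairs). The labels name no shared culture or day and 1 pair was negative, so the numbers were not taken as pairing the samples. Calls at low read numbers, as for PSMD5 with 29 reads in its lowest library, are limited by depth.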
